A study of Mus musculus with 6 samples.

Results

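Mitochondrial ribosomal protein genes were the 70 genes of the expression table whose symbol begins with Mrpl or Mrps followed by a digit, out of 8191 genes listed. Of these, 44 carry a symbol for the large subunit of the mitochondrial ribosome (Mrpl) and 26 a symbol for the small subunit (Mrps). The GENCODE M21 annotation of the mouse holds 78 protein-coding genes with such symbols, and all 70 listed genes were found in it. The other 8 (Mrpl18, Mrpl19, Mrpl48, Mrpl52, Mrpl58, Mrps16, Mrps26, and Mrps28) were not analysed here.

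RNA-seq was done on myeloid-derived suppressor cells (MDSCs), immature myeloid cells that restrain T cells, taken without culture or treatment from the spleens of aged BALB/c mice. The 3 groups were WT mice, Tnfr1-/- mice, which lack the TNF receptor TNFR1, and Tnfr2-/- mice, which lack TNFR2. Each group had 2 samples, for 6 in all, and each sample came from the cells of several pooled mice. Both knockouts are of the whole mouse and not of MDSCs alone, and the study used the comparison to ask how each receptor acts in aged MDSCs.

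The mitochondrial ribosome translates the few proteins encoded by mitochondrial DNA, all of them subunits of the respiratory chain and ATP synthase. Its RNAs come from mitochondrial DNA, whereas its proteins are encoded in the nucleus, made in the cytosol, and imported. Some of these proteins have counterparts in bacterial ribosomes, and others were acquired in the mitochondrial lineage.

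Levels were deposited as FPKM (fragments per kilobase of transcript and library size in fragments), which are comparable between genes because they are divided by transcript length. The table lists only genes for which a one-way ANOVA over the 3 genotypes gave p under 0.05, and the recomputed p differed by at most 1% from the deposited one for 8191 of 8191 genes. All 70 genes were therefore selected for a difference between genotypes, and a test that finds one adds little. Their ANOVA p ran from 3.9e-06 to 0.0492. Read totals were not analysed here, and depth is unknown for every value. The summed FPKM was 344714 and 346870 in the WT samples, against 133604 to 155248 in the 4 knockout samples. The WT values were also written with up to 10 digits and those of the knockouts with up to 6. Differences between WT and the knockouts therefore cannot be told apart from differences in the making of the FPKM values. Values are as deposited unless stated, and counts of calls against WT are given again after median-ratio scaling, which divides each sample by a size factor (1.66 and 1.67 for WT, 0.740 to 0.881 for the knockouts). Tnfrsf1b, the gene of TNFR2, stood at 112 and 115 FPKM in WT, 47.8 and 69.6 in Tnfr1-/-, and 11.3 and 14.3 in Tnfr2-/- samples, lowest in the group labelled as its knockout.

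The labelled cell type was checked against marker genes. Ly6c1, a Ly6C gene whose product the Gr-1 antibody can bind, was at 0.159 and 0.0638 FPKM in WT, 95.8 and 99.6 in Tnfr1-/-, and 121 and 178 in Tnfr2-/- samples, so it was nearly absent from the WT samples labelled as MDSCs. Ptprc, the gene of CD45, was at 98.2 and 105 FPKM in WT, 229 and 271 in Tnfr1-/-, and 267 and 237 in Tnfr2-/- samples. Itgam, Ly6g, and Ly6c2 were not analysed here. All 9 macrophage markers were listed, and their summed level was 3397 to 3512 FPKM in WT, 204 to 237 in Tnfr1-/-, and 266 to 269 in Tnfr2-/- samples. The 3 of 10 granulocyte markers that were listed summed to 13.7 to 15.4 FPKM in WT, 2732 to 3070 in Tnfr1-/-, and 1522 to 2450 in Tnfr2-/- samples. The 3 of 4 B cell markers that were listed summed to 45.5 to 46.1, 305 to 363, and 159 to 288 FPKM, respectively. Markers of other cell types thus moved with genotype in the same samples, and their part in the results below was not tested. In such bulk samples, fewer cells of a type and less RNA per cell cannot be told apart.

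The 70 genes lay on 17 chromosomes, and the most on any of them were 10 on chromosome 11, 7 on chromosome 17, and 6 on chromosome 6. They were short: the longest coding transcript had a median of 1302 bases (range 478 to 7300), against 3007.5 bases over the listed genes. In 18 of the 70 genes (25.7%), the start lay within 1000 bases of the start of a coding gene on the opposite strand running the other way, compared with 10.2% of listed genes. RefSeq promoters (build GRCm38.p6, 250 bases before to 50 bases after the start) were matched for 63 of the 70 genes, with 65 promoters in all. On either strand, the letters TGCGCA, the core bound by nuclear respiratory factor 1 (NRF1), were in 29.2% of them, compared with 13.4% of promoters of listed genes and 7.76% of all promoters. CCGGAAG, the core bound by ETS factors such as GABP, was in 30.8%, against 16.9% and 8.86%. AAGATGG, the core bound by YY1, was in 18.5%, against 7.13% and 6.34%. TATAAA, the TATA box, was in 6.15%, against 7.35% and 13.6%. In all, 38 genes held at least 1 of the first 3 motifs. No motif searched contains another, and a match is a description rather than a site of binding.

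Stretches of 4 promoters that lie in no annotated exon are shown 5′ to 3′ in the direction of the gene, with NRF1 and ETS cores in capitals, to set stretches that carry these letters beside 1 that does not. Mrpl10 (chr11:97041410-97041559, plus strand) differed least between Tnfr2-/- and WT samples and holds an NRF1 core, Mrps18a (chr17:46110836-46110985, plus strand) holds both cores, Mrps22 (chr9:98601680-98601829, minus strand) holds an ETS core, and Mrpl33 (chr5:31613789-31613938, plus strand), the highest of the 70 by mean FPKM, holds neither in the stretch shown, although an ETS core lies elsewhere in its promoter.
Mrpl10: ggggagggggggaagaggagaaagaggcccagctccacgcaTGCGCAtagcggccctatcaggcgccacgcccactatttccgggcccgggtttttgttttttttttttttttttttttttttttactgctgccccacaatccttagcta
Mrps18a: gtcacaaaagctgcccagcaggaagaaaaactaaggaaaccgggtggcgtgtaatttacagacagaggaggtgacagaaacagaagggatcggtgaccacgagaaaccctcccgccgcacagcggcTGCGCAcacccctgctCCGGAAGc
Mrps22: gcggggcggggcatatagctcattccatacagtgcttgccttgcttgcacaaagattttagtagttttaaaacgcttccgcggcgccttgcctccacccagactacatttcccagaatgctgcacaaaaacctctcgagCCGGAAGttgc
Mrpl33: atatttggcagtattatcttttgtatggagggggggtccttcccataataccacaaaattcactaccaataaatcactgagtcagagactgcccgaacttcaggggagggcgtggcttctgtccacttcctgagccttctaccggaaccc

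Mitochondrial ribosomal protein genes were mostly lower in aged Tnfr2-/- than in aged WT MDSCs, but a few large-subunit genes were higher. As deposited, both WT samples lay above both Tnfr2-/- samples in 65 of the 70 genes (77.2% of all listed genes did so), and both Tnfr2-/- samples lay above both WT samples in the other 5 (21.1% of listed genes). At adjusted p under 0.05 and a change over 1.5-fold, 63 of the 70 genes were called lower, against 57.1% of all genes tested, and 3 were called higher, against 13.6%. The median log2 change of the 70 genes was -1.18, and that of all listed genes was -0.74.

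**Figure D1:**
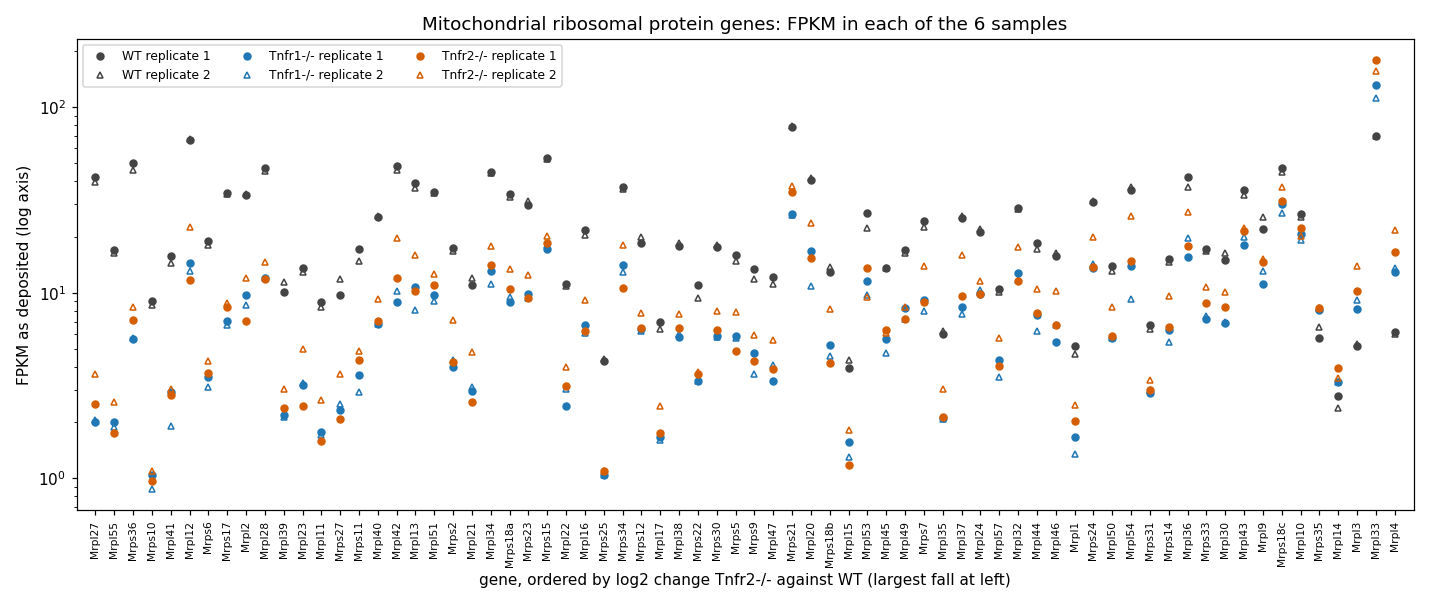
FPKM as deposited (log axis) of each of the 70 genes in the 6 samples, with circles for replicate 1 and triangles for replicate 2 of each genotype, and genes ordered by log2 change in Tnfr2-/- against WT. WT points lie above the knockout points in 65 genes, and Mrps35, Mrpl14, Mrpl3, Mrpl33, and Mrpl4 at the right edge show the reverse.

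Genes with an Mrpl symbol were called lower in 39 of 44 cases with a median log2 change of -1.05, and the 3 genes called higher were all in this group. Among genes with an Mrps symbol, 24 of 26 were called lower and none higher, with a median of -1.28. This grouping is by symbol only, and it counts Mrps36, which is not a ribosomal subunit. Genes with a bacterial counterpart were called lower in 37 of 43 cases (median -1.18), and those without one, Mrps36 among them, in 26 of 27 (median -1.23). All 4 shares were above the 57.1% of all listed genes. With median-ratio scaling, 11 of the 44 Mrpl genes and 7 of the 26 Mrps genes were called lower. So were 10 of the 43 genes with a bacterial counterpart and 8 of the 27 without one. These shares were near the 21% of all listed genes.

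Median-ratio scaling moved the median change of all listed genes from -0.74 to -0.03, and that of the 70 genes from -1.18 to -0.31. With this scaling, 51 of the 70 changes were below 0, as were 4321 of the 8191 over all listed genes. Of the 70 genes, 18 were called lower (21% of all listed genes were) and 6 higher (21.8%). The share called lower was thus close to that of the table as a whole, and the share called higher was below it. Other listed genes whose WT level lay in the middle range of the 70 genes (11.5 to 34.0 FPKM, 2029 genes) had a median change of -0.95 as deposited. The 879 listed genes with transcripts as short as those of the 70 had a median of -1.08.

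**Figure D2:**
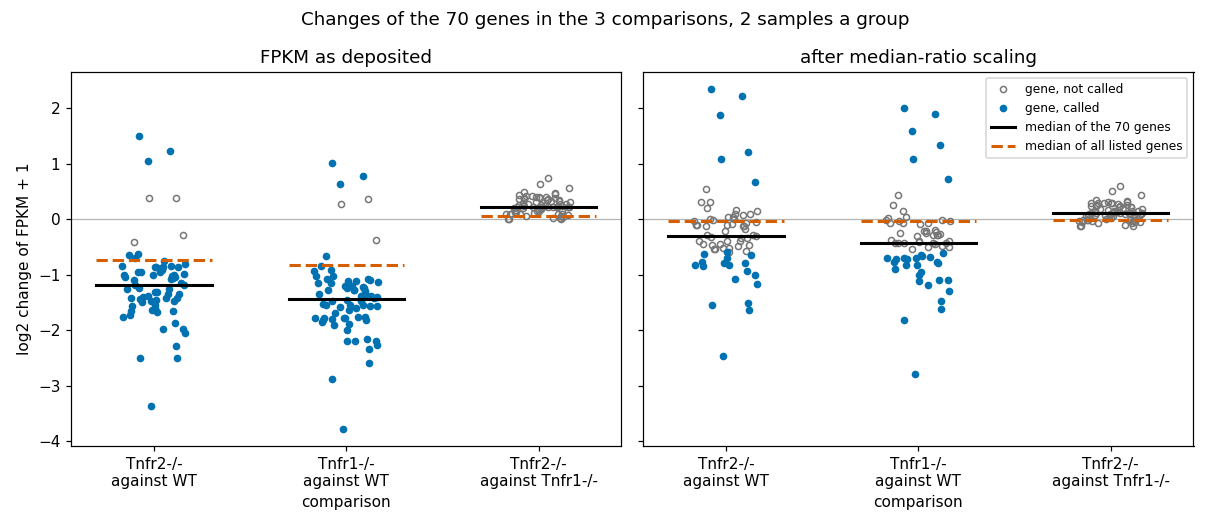
Log2 change of FPKM + 1 for each of the 70 genes in the 3 comparisons, as deposited (left) and after median-ratio scaling (right), with filled points for called genes, a black bar for the median of the 70 genes, and a dashed bar for the median of all 8191 listed genes. The black bar lies below the dashed bar against WT and above it between the knockouts in both panels.

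Mrpl4, a protein of the large subunit with a bacterial counterpart, had the largest rise. The gene lies at chr9:21002738-21008839 on the plus strand (GENCODE M21, GRCm38). It was at 6.17 and 5.99 FPKM in WT, 12.9 and 13.6 in Tnfr1-/-, and 16.6 and 21.7 in Tnfr2-/- samples. Neither knockout overlapped WT, and the Tnfr2-/- samples were the highest. The log2 change against WT was 1.5 (SE 0.14, adjusted p = 0.000402) in Tnfr2-/- and 1.01 (SE 0.14, adjusted p = 0.00129) in Tnfr1-/- MDSCs, and 2.35 and 2.00 after median-ratio scaling.

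Mrpl33, a small protein of the large subunit, was the most abundant of the 70 transcripts in the knockouts, with its gene at chr5:31596935-31664384 on the plus strand. It was at 70.4 and 70.2 FPKM in WT, 132 and 112 in Tnfr1-/-, and 179 and 156 in Tnfr2-/- samples. The 3 groups did not overlap, with WT lowest and Tnfr2-/- highest. The log2 change against WT was 1.24 (SE 0.12, adjusted p = 0.000468) in Tnfr2-/- and 0.78 (SE 0.12, adjusted p = 0.00195) in Tnfr1-/- MDSCs. As deposited, Mrpl33 was higher and most of the other genes were lower in the knockouts. Mrpl33 made up 4.22% and 4.29% of the summed FPKM of the 70 genes in WT samples and 17.1% to 23.5% in the knockout samples. Mrpl33 shares 30.3% of its 50-base windows with another annotated gene, Gm43809, and overlaps Rbks on the opposite strand, so its level is uncertain in that measure.

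Mrpl3, a large-subunit protein with a bacterial counterpart that is linked to human cardiomyopathy (chr9:105053239-105079888, plus strand), was at 5.18 and 5.33 FPKM in WT, 8.21 and 9.18 in Tnfr1-/-, and 10.2 and 13.9 in Tnfr2-/- samples. It was higher in all 4 knockout samples than in either WT sample. The log2 change was 1.05 (SE 0.16, adjusted p = 0.00202) in Tnfr2-/- and 0.63 (SE 0.16, adjusted p = 0.0115) in Tnfr1-/- MDSCs against WT. Mrpl3, Mrpl4, and Mrpl33 were called higher in both knockouts under each of the 4 scalings tried. How many of all listed genes were called the same way under all 4 was not computed.

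The other 2 genes above WT in both knockouts moved less. Mrpl14, a large-subunit protein, was at 2.76 and 2.40 FPKM in WT, 3.32 and 3.32 in Tnfr1-/-, and 3.91 and 3.49 in Tnfr2-/- samples. Mrps35, a small-subunit protein, was at 5.70 and 6.54 FPKM in WT, 8.06 and 8.29 in Tnfr1-/-, and 8.23 and 8.23 in Tnfr2-/- samples. Both passed adjusted p under 0.05 against WT, with log2 changes of 0.39 and 0.38 in Tnfr2-/- and 0.27 and 0.37 in Tnfr1-/- MDSCs, but not the 1.5-fold threshold. After median-ratio scaling both were called higher in both knockouts, with log2 changes in Tnfr2-/- of 1.09 (adjusted p = 0.00094) for Mrpl14 and 1.22 (adjusted p = 0.000414) for Mrps35.

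The deepest fall was in Mrpl27, a protein of the large subunit that in bacteria reaches toward the site where peptide bonds form (gene at chr11:94653767-94660089, plus strand). It was at 42.2 and 39.5 FPKM in WT, 2.02 and 2.06 in Tnfr1-/-, and 2.53 and 3.63 in Tnfr2-/- samples. WT samples lay more than 10 times above any knockout sample. The log2 change was -3.37 (SE 0.15, adjusted p = 4.97e-05) in Tnfr2-/- and -3.78 (SE 0.15, adjusted p = 3.2e-05) in Tnfr1-/- MDSCs. Mrpl27 shares 39.0% of its 50-base windows with other annotated genes and overlaps Eme1 on the opposite strand, so part of its reads could belong elsewhere.

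Mrpl55, a large-subunit protein without a bacterial counterpart (chr11:59202486-59206134, plus strand), was at 17.1 and 16.3 FPKM in WT, 2.01 and 1.89 in Tnfr1-/-, and 1.75 and 2.58 in Tnfr2-/- samples. Its log2 change was -2.49 (SE 0.15, adjusted p = 0.00011) in Tnfr2-/- and -2.59 (SE 0.15, adjusted p = 8.69e-05) in Tnfr1-/- MDSCs, and none of its windows was shared with another gene. Mrps36, which despite its symbol is a subunit of the oxoglutarate dehydrogenase complex of the citric acid cycle (chr13:100735955-100744659, minus strand), was at 50.3 and 46.0 FPKM in WT, 5.67 and 5.70 in Tnfr1-/-, and 7.10 and 8.38 in Tnfr2-/- samples. Its log2 change was -2.49 in Tnfr2-/- (SE 0.10, adjusted p = 3.99e-05) and -2.88 (SE 0.10, adjusted p = 2.36e-05) in Tnfr1-/- MDSCs.

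Mrps10, a protein of the small subunit (chr17:47368887-47381417, plus strand), fell from 9.07 and 8.65 FPKM in WT to 1.04 and 0.881 in Tnfr1-/- and 0.967 and 1.09 in Tnfr2-/- samples, the lowest level among the 70 genes in every knockout sample. Its log2 change was -2.28 (SE 0.08, adjusted p = 2.77e-05) in Tnfr2-/- and -2.33 (SE 0.08, adjusted p = 2.36e-05) in Tnfr1-/- MDSCs. Mrps6, Mrps17, Mrpl39, and Mrpl2 also stayed called lower in Tnfr2-/- under every scaling, with log2 changes as deposited of -1.97, -1.88, -1.67, and -1.77. Mrps36 and Mrps10 share 36.2% and 22.6% of their windows with pseudogenes or other annotated genes. Among those of the 70 described below, the share was larger than both for Mrps25 (73.9%), Mrps18b (63.7%), Mrps34 (52.4%), and Mrpl24 (38.0%), so their levels are uncertain too. In all, 27 of the 70 genes share more than 10% of their windows with other genes, and among the 43 that do not, 39 were called lower and 2 higher in Tnfr2-/- against WT.

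The abundant genes of WT MDSCs showed how the order within the family changed. Mrps21, a small-subunit protein, was the highest of the 70 in both WT samples, at 78.5 and 78.8 FPKM, and stood at 26.5 and 26.2 in Tnfr1-/- and 34.7 and 37.6 in Tnfr2-/- samples. Mrpl12, a large-subunit protein that also binds the mitochondrial RNA polymerase, was at 66.5 and 67.8 FPKM in WT, 14.5 and 13.1 in Tnfr1-/-, and 11.7 and 22.6 in Tnfr2-/- samples. Mrps15 was at 53.1 and 52.8 FPKM in WT, 17.2 and 18.1 in Tnfr1-/-, and 18.5 and 20.1 in Tnfr2-/- samples. All 3 were above both knockouts in each WT sample, and their log2 changes in Tnfr2-/- were -1.10, -1.98, and -1.41 with adjusted p of 0.000124, 0.00208, and 7.43e-05.

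By the mean over all 6 samples, the least abundant genes were Mrps25, Mrpl15, Mrpl1, Mrpl14, and Mrpl17. Mrps25, a small-subunit protein particular to mitochondria, was at 4.30 and 4.41 FPKM in WT, 1.04 and 1.04 in Tnfr1-/-, and 1.10 and 1.10 in Tnfr2-/- samples. Mrpl1 was at 5.20 and 4.65 FPKM in WT, 1.67 and 1.36 in Tnfr1-/-, and 2.04 and 2.49 in Tnfr2-/- samples. WT was highest for all of them but Mrpl14, and the log2 changes in Tnfr2-/- were -1.35 for Mrps25, -1.05 for Mrpl15, -0.86 for Mrpl1, and -1.31 for Mrpl17.

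Mrps18a, Mrps18b, and Mrps18c are related proteins that descend from the same bacterial ancestor, and their levels moved by different amounts. Mrps18c was the most abundant, at 47.2 and 44.5 FPKM in WT, 30.2 and 26.9 in Tnfr1-/-, and 31.2 and 37.3 in Tnfr2-/- samples. Mrps18a was at 34.0 and 33.0 FPKM in WT, 8.88 and 9.51 in Tnfr1-/-, and 10.4 and 13.5 in Tnfr2-/- samples. Mrps18b was at 13 and 13.8 FPKM in WT, 5.23 and 4.55 in Tnfr1-/-, and 4.20 and 8.16 in Tnfr2-/- samples. WT was highest for each of them. As deposited, Tnfr2-/- differed from WT by a log2 change of -1.42 for Mrps18a, -1.06 for Mrps18b, and -0.42 for Mrps18c, and the last turned to 0.55 after median-ratio scaling.

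Mrpl10, which pairs with the stalk proteins of the large subunit, behaved like Mrps18c. It was at 26.6 and 25.5 FPKM in WT, 20.8 and 19.2 in Tnfr1-/-, and 22.4 and 20.1 in Tnfr2-/- samples, so that WT was above both knockouts by a small margin. The log2 change in Tnfr2-/- was -0.28 (SE 0.08, adjusted p = 0.0226) as deposited and 0.67 (adjusted p = 0.0049) after median-ratio scaling. Mrpl11, which lies at the base of the same stalk, fell from 8.89 and 8.39 FPKM in WT to 1.77 and 1.72 in Tnfr1-/- and 1.59 and 2.63 in Tnfr2-/- samples, with a log2 change of -1.65 in Tnfr2-/- (adjusted p = 0.00065).

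**Figure D3:**
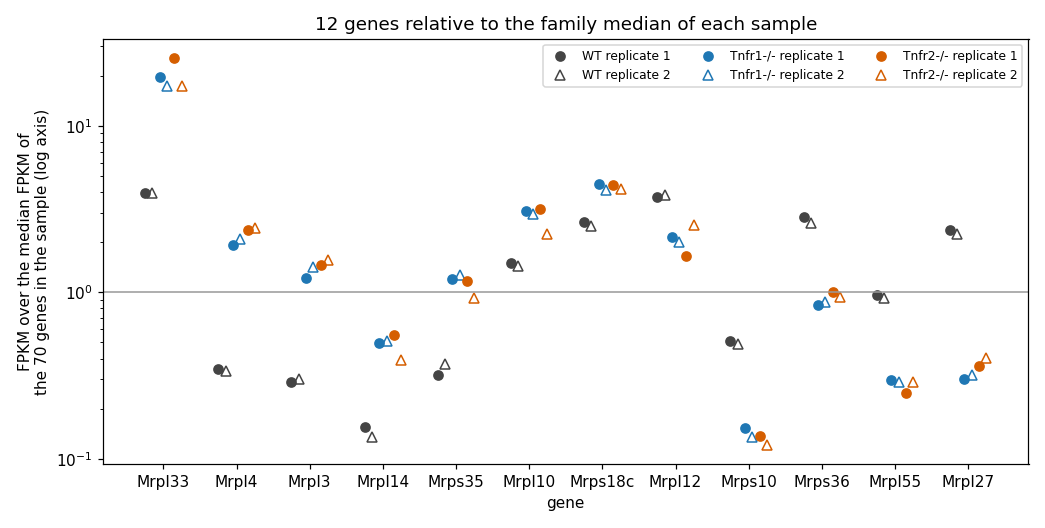
FPKM of 12 of the 70 genes divided by the median FPKM of the 70 genes in the same sample (log axis), for each sample of the 3 genotypes. Mrpl33 rises from 3.96 in both WT samples to between 17.3 and 25.5 in the knockouts, and Mrpl27 falls from 2.38 and 2.23 to between 0.301 and 0.406.

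Relative to the family median of its own sample, a measure that no scaling of the sample can change, Mrpl4 went from 0.347 and 0.338 in WT to 1.92 and 2.10 in Tnfr1-/- and 2.36 and 2.42 in Tnfr2-/- samples. Mrpl3 went from 0.291 and 0.301 to 1.22 and 1.42, and to 1.46 and 1.56, respectively. Mrpl10 went from 1.49 and 1.44 to 3.09 and 2.96, and to 3.18 and 2.25. Mrpl55 went the other way, from 0.962 and 0.921 to 0.299 and 0.291, and to 0.249 and 0.288. WT and the knockouts did not overlap in any of these 4 genes. Across the 70 genes, Spearman's rho between samples was 0.994 for the WT pair, 0.983 for the Tnfr1-/- pair, and 0.969 for the Tnfr2-/- pair, 0.964 to 0.979 between samples of different knockouts, and 0.721 to 0.766 between WT and knockout samples. These are descriptions over 70 genes that share libraries, and the order of the genes differed more between WT and either knockout than between the knockouts.

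Of the listed genes with a link to human mitochondrial disease, Mrpl3 is described above. The others examined, Mrps2, Mrps7, Mrps14, Mrps22, Mrps34, Mrpl12, Mrpl24, and Mrpl44 were called lower in Tnfr2-/- against WT, with log2 changes from -1.98 for Mrpl12 to -0.83 for Mrps14. Mrps22, for example, was at 11 and 9.36 FPKM in WT, 3.36 and 3.36 in Tnfr1-/-, and 3.65 and 3.72 in Tnfr2-/- samples. Mrps34 was at 37.4 and 36.4 FPKM in WT, 14.2 and 12.9 in Tnfr1-/-, and 10.6 and 18.1 in Tnfr2-/- samples. WT was highest in both, and the adjusted p in Tnfr2-/- was 0.000299 for Mrps22 and 0.00392 for Mrps34. After median-ratio scaling, 7 of these 8 genes were no longer called, and Mrps14 and Mrpl44 moved to 0.07 and 0.01.

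Mrps30 and Mrpl41, both described as able to promote cell death outside the ribosome, were lower too. Mrpl41 was at 15.9 and 14.5 FPKM in WT, 2.91 and 1.91 in Tnfr1-/-, and 2.82 and 3.02 in Tnfr2-/- samples. Mrps30 was at 17.8 and 18.2 FPKM in WT, 5.87 and 5.76 in Tnfr1-/-, and 6.27 and 7.95 in Tnfr2-/- samples. The log2 change in Tnfr2-/- was -2.04 (adjusted p = 0.000275) for Mrpl41, which stayed called after median-ratio scaling, and -1.23 (adjusted p = 0.000488) for Mrps30, which did not. Mrps12, a protein near the decoding site of the small subunit, and Mrps5 had log2 changes of -1.31 and -1.18 and lost their calls in the same way.

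Compared with WT, Tnfr1-/- MDSCs showed a similar split as deposited, but more genes stayed lower after median-ratio scaling. As deposited, 64 of the 70 genes were called lower (60.7% of all listed genes were) and 3 higher (14.1%), and the median log2 change was -1.44, compared with -0.83 for all listed genes. WT lay above both Tnfr1-/- samples in 65 genes (77.3% of listed genes) and below both in 5 (21.7%). With median-ratio scaling, 26 of the 70 genes (37.1%) were called lower, against 22.1% of listed genes. In Tnfr2-/- against WT, 25.7% of the 70 were lower with that scaling. In Tnfr1-/- MDSCs 6 genes were called higher (23.3% of listed genes), and the medians were -0.43 and -0.03. A scaling that centres every sample on the median of the 70 genes, chosen after seeing the data, shows which of them moved against their own family. It left 7 genes higher and 12 lower in Tnfr2-/- against WT (37.9% and 15.7% of listed genes) and the same numbers in Tnfr1-/- against WT (45% and 14.5%), with none called between the knockouts (0.977% and 3.05%). The comparisons of the 2 knockouts with WT share the WT samples, so their resemblance is not independent.

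Position within a sample gives a view that does not depend on any scaling of that sample. Ranked among all listed genes of the same sample, the median of the 70 genes stood at the 67.7th and 67.9th percentiles in WT, the 58.6th and 58.1st in Tnfr1-/-, and the 59.5th and 63.4th in Tnfr2-/- samples. In Tnfr2-/- against WT, 46 of the 70 genes had a lower percentile in both samples with no overlap (45.4% of listed genes did) and 8 a higher one (38.9%). In Tnfr1-/- against WT, 60 genes were lower (48.9%) and 7 higher (39%). Mrpl4 rose from the 41.2nd and 41.1st percentiles in WT to the 75.1st and 76.8th in Tnfr1-/- and the 79.5th and 83.0th in Tnfr2-/- samples. Mrpl27 fell from the 84.9th and 83.8th to the 33.7th and 34.6th, and to the 37.7th and 42.0th. The share of the 70 genes in the summed FPKM of a sample was 0.472% and 0.484% in WT and 0.477% to 0.590% in the knockouts.

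**Figure D4:**
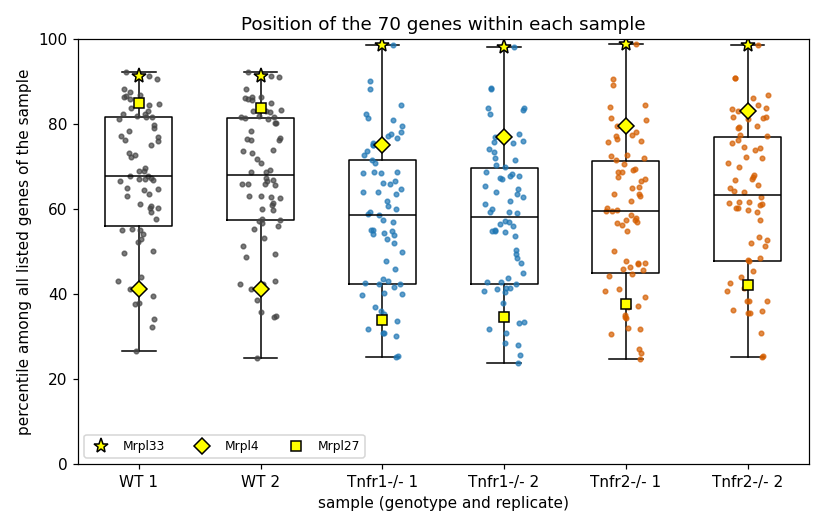
Percentile of each of the 70 genes among all listed genes of its sample, with boxes for the median and quartiles, whiskers to the farthest gene within 1.5 interquartile ranges, and larger symbols for Mrpl33, Mrpl4, and Mrpl27. The median lies at 67.7 and 67.9 in WT and between 58.1 and 63.4 in the 4 knockout samples.

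Tnfr2-/- and Tnfr1-/- MDSCs, which came with the same number of digits and with similar sums, can be compared more directly. None of the 70 genes was called in either direction by limma (0.842% of all listed genes were called higher and 0.61% lower). An unadjusted p under 0.05 was found for 16 of the 70 and for 1962 of the 8191 listed genes. All 70 log2 changes were nevertheless above 0, with a median of 0.23, while 5166 of the 8191 listed genes were above 0, with a median of 0.06. Both Tnfr2-/- samples lay above both Tnfr1-/- samples in 38 genes (34.9% of listed genes), and the reverse held for 0 of the 70 (16.1%). After median-ratio scaling, 53 were above 0 and 17 below (3631 and 4402 of the 8191 listed genes). The median was 0.11 against -0.02 over all listed genes, and again none of the 70 was called (1.09% and 1.45% of listed genes). By percentile within a sample, 28 genes were higher in both Tnfr2-/- than in both Tnfr1-/- samples (23.5% of listed genes) and 1 was lower (22.8%).

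The smallest adjusted p by limma was that of Mrps21, with a log2 change of 0.44 (SE 0.07, adjusted p = 0.0503), which is also under the 1.5-fold threshold. The Tnfr2-/- values of Mrps21, 34.7 and 37.6 FPKM, lay above the Tnfr1-/- values of 26.5 and 26.2. The largest differences were in Mrpl54, Mrpl42, Mrpl37, and Mrpl4, at 0.74, 0.64, 0.57, and 0.49, with adjusted p of 0.232, 0.184, 0.228, and 0.124. Mrpl54, a large-subunit protein, was at 13.9 and 9.31 FPKM in Tnfr1-/- and 14.8 and 26.1 in Tnfr2-/- samples. Mrpl42 was at 8.94 and 10.2, and at 12 and 19.8, respectively, and Mrpl37 at 8.43 and 7.71, and at 9.58 and 16.1. The smallest were in Mrpl2, Mrps35, Mrpl49, and Mrpl15, from 0.01 to 0.03. In Mrpl54, Mrpl42, and Mrpl37, replicate 2 of Tnfr2-/- was far above the other 3 knockout samples.

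The 2 Tnfr2-/- samples differed from each other more than the 2 samples of the other groups did. Replicate 2 was above replicate 1 in 65 of the 70 genes (57.6% of listed genes), with a median log2 difference of 0.35, whereas over all listed genes the difference was 0.04. In WT and Tnfr1-/- the same difference was above 0 in 26 and 27 of the 70 genes (45.0% and 45.6% of listed genes). The SD between replicates of the 70 genes was 0.070 in WT, 0.127 in Tnfr1-/-, and 0.302 in Tnfr2-/- samples. Over all listed genes it was 0.079, 0.139, and 0.219, respectively, in the same order. On the log2(FPKM + 1) scale, the widest gap was in Mrpl12, at 11.7 and 22.6 FPKM. Replicate 1 alone lay above both Tnfr1-/- samples in 40 of the 70 genes and below both in 14, and 45.9% of all listed genes lay above both. Replicate 2 alone lay above both in 67 and below both in 1, and 55.2% of all listed genes lay above both.

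**Figure D5:**
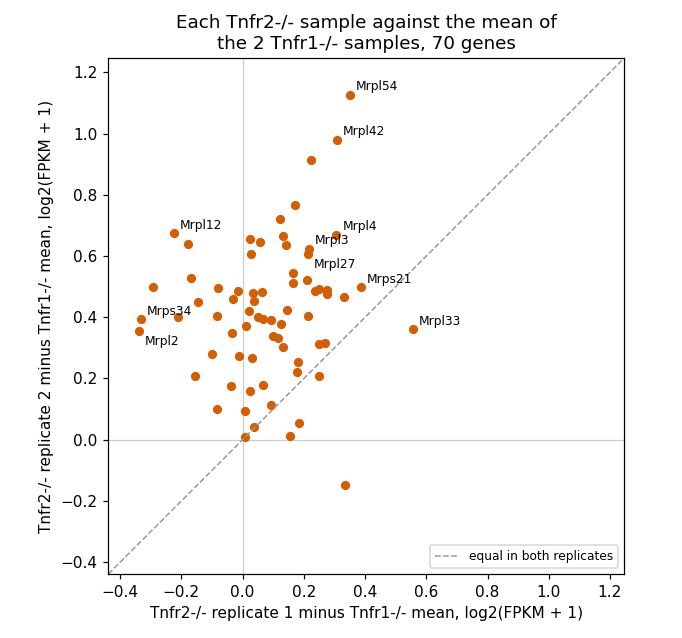
Log2(FPKM + 1) of each of the 70 genes in Tnfr2-/- replicate 1 (horizontal) and replicate 2 (vertical), each minus the mean of the 2 Tnfr1-/- samples, with a dashed line where both are equal. Points lie above the dashed line in 65 genes, and around 0 on the horizontal axis.

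Without replicate 1, 10 genes were called higher in Tnfr2-/- than in Tnfr1-/- MDSCs (6.53% of all listed genes were). These were Mrpl3, Mrpl4, Mrpl12, Mrpl27, Mrpl37, Mrpl42, Mrps2, Mrps7, Mrps14, and Mrps18b, with log2 changes from 0.61 for Mrpl27 to 0.98 for Mrpl42. Without replicate 2, none was called (0.0122% of listed genes), 52 genes were above 0 and 18 below, and the median was 0.09. The shift of the family between the knockouts therefore rests largely on 1 sample. In that sample, the 3 listed granulocyte markers summed to 1522 FPKM, compared with 2450 in replicate 1, and the 3 listed B cell markers to 288 FPKM, compared with 159, and the part of these cells was not tested. Genes with a cytosolic ribosomal protein symbol (31 of 32, median 0.62) and nuclear genes of the respiratory chain (70 of 79, median 0.33) were also higher in replicate 2 than in replicate 1.

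Other genes of mitochondrial translation were examined from lists chosen by function, to be read against the 57.1% and 60.7% of all listed genes called lower in Tnfr2-/- and Tnfr1-/- MDSCs as deposited and the 21% and 22.1% after median-ratio scaling. The shares called higher were 13.6% and 14.1% as deposited and 21.8% and 23.3% after that scaling. The list of mitochondrial ribosomal proteins with other symbols held Dap3, Gadd45gip1, Chchd1, Aurkaip1, Ptcd3, and Lactb, of which Lactb is not an established ribosomal subunit. All 6 were called lower in Tnfr2-/- against WT, with a median log2 change of -1.01, and also in Tnfr1-/- MDSCs. Gadd45gip1, a large-subunit protein also known as a cell cycle inhibitor, was at 15.6 and 15.2 FPKM in WT, 4.41 and 4.65 in Tnfr1-/-, and 3.78 and 6.30 in Tnfr2-/- samples. Its log2 change of -1.47 (adjusted p = 0.00177) in Tnfr2-/- was the deepest of the 6. None of the 6 was called after median-ratio scaling.

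Of 19 listed factors that assemble the mitochondrial ribosome or modify its RNA, 13 were called lower than WT in Tnfr2-/- and 17 in Tnfr1-/- MDSCs, with none higher, and 3 and 2 were lower after median-ratio scaling. Mpv17l2, an inner membrane protein that attends ribosome assembly, fell from 28.7 and 29.2 FPKM in WT to 6.09 and 5.67 in Tnfr1-/- and 6.70 and 9.38 in Tnfr2-/- samples. Ybey, an RNA-processing endonuclease, differed least in this list, at -0.32. Of 17 translation factors, 16 were called lower in Tnfr2-/- and 17 in Tnfr1-/- MDSCs, led by Tufm, the elongation factor that carries aminoacyl-tRNA to the ribosome, at 39.6 and 40.0 FPKM in WT, 9.36 and 9.63 in Tnfr1-/-, and 9.25 and 14.0 in Tnfr2-/- samples. The log2 change in Tnfr2-/- was -1.74 (adjusted p = 0.000379) for Mpv17l2 and -1.72 (adjusted p = 0.000706) for Tufm, and Gtpbp3, a tRNA-modifying enzyme, differed least among the translation factors, at -0.51. After median-ratio scaling, 1 translation factor was called lower in Tnfr2-/- and 3 in Tnfr1-/- MDSCs.

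Of 15 listed mitochondrial tRNA synthetases and related enzymes, 11 were called lower in Tnfr2-/- and 12 in Tnfr1-/- against WT. After median-ratio scaling, limma called 0 lower in either knockout, and Mars2 higher in Tnfr1-/- MDSCs. Mars2, which charges the mitochondrial methionine tRNA, was the only gene of these lists called between the knockouts, at 4.41 and 3.76 FPKM in Tnfr1-/- and 1.77 and 2.09 in Tnfr2-/- samples. The Tnfr2-/- samples lay below both the Tnfr1-/- samples and the WT samples (2.77 and 2.56 FPKM), and the log2 change between the knockouts was -0.79 (SE 0.11, adjusted p = 0.0407). Gars, the glycine enzyme shared with the cytosol, fell most against WT, with a log2 change of -1.33 in Tnfr2-/- MDSCs (adjusted p = 0.000912).

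Of 16 genes of mitochondrial transcription and DNA maintenance, 9 were called lower and 3 higher in Tnfr2-/- against WT, about the shares of all listed genes (57.1% and 13.6%), and 9 lower and 4 higher in Tnfr1-/- MDSCs. The balance turned after median-ratio scaling, with 7 higher and 1 lower in each knockout. Over all listed genes the balance moved too, to 21.8% higher and 21% lower in Tnfr2-/- and 23.3% and 22.1% in Tnfr1-/- MDSCs. Mterf1a, a factor that binds mitochondrial DNA and ends transcription, was at 0.608 and 0.713 FPKM in WT, 3.42 and 3.46 in Tnfr1-/-, and 2.89 and 2.18 in Tnfr2-/- samples, with a log2 change of 1.08 (adjusted p = 0.000608) in Tnfr2-/- MDSCs. Tefm, the elongation factor of the mitochondrial polymerase, went from 4.10 and 5.07 FPKM in WT to 1.02 and 1.09 in Tnfr1-/- and 0.626 and 1.86 in Tnfr2-/- samples, a log2 change of -1.37 (adjusted p = 0.00614).

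Nuclear genes of the respiratory chain, whose complexes join the products of the mitochondrial ribosome, were called lower against WT in 72 of 79 cases in Tnfr2-/- and in 78 of 79 in Tnfr1-/- MDSCs, and none higher. After median-ratio scaling, 14 and 32 of them were lower, with 1 higher in each knockout. Their median in Tnfr2-/- was -1.16, near the -1.18 of the 70 ribosomal genes. Between the knockouts, 77 of the 79 were above 0 with none called, and 30 had an unadjusted p under 0.05 (1962 of the 8191 listed genes did). Uqcr10, a small subunit of complex III, fell from 156 and 143 FPKM in WT to 17.6 and 10.6 in Tnfr1-/- and 13.4 and 17.6 in Tnfr2-/- samples, and Ndufaf3, an assembly factor of complex I, differed least between Tnfr2-/- and WT MDSCs, at 9.46 and 9.96 FPKM in Tnfr2-/- and 9.14 and 9.64 in WT samples. Of 32 listed genes with a cytosolic ribosomal protein symbol, 30 were called lower and 2 higher in both knockouts against WT, with a median of -1.18 in Tnfr2-/- MDSCs. This grouping too is by symbol only, and it counts Rps19bp1, which is not itself a ribosomal protein. After median-ratio scaling 11 were lower in Tnfr2-/- and 12 in Tnfr1-/- MDSCs. The range was wider there, from -5.67 for Rps2 to 1.63 for Rps27.

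Sequence features were set beside the changes. Promoters with and without the NRF1 core had median log2 changes of -1.06 (19 genes) and -1.24 (44 genes) in Tnfr2-/- against WT, those with and without the ETS core -1.28 (20 genes) and -1.18 (43 genes), and those with and without the YY1 core -1.01 (12 genes) and -1.23 (51 genes). The 35 genes with shorter transcripts had a median change from WT of -1.40 in Tnfr2-/- and -1.59 in Tnfr1-/- MDSCs, and the 35 longer ones -1.01 and -1.27. Spearman's rho between transcript length and the change was 0.17 and 0.25 over the 70 genes and 0.29 and 0.31 over the listed genes with a length. Of the 18 genes with a divergent neighbour, 7 had a listed neighbour, and both genes of each of the 7 pairs lay below 0 in Tnfr2-/- against WT, as did 77.8% of all listed genes. Fau, which encodes a fused ribosomal protein and starts 59 bases from Mrpl49, is 1 of the 7. Its mean was 849 FPKM in WT, 329 in Tnfr1-/-, and 352 in Tnfr2-/- MDSCs.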

How the data were processed

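Total RNA of MDSCs was made into SMARTer libraries and sequenced by the authors, who deposited FPKM for 6 samples with an ANOVA p-value for each gene. The submitters' processing notes name FastQC, edgeR, and the mouse build mm10, and the aligner and quantifier are not given in the sources used here. The deposited p-value served only to check how genes were filtered. No columns of other samples were found (0).

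Groups followed the sample titles. FPKM are not counts, so limma 3.58.1 (R 4.3.3) was fitted to log2(FPKM + 1) over all 8191 genes and 6 samples, with 3 groups, a trended prior, and Benjamini-Hochberg adjustment over all genes. Fold changes are on that scale and understate changes of low genes. Genes were called at adjusted p under 0.05 and over 1.5-fold. An exact test of 2 against 2 samples cannot go below a two-sided p of 0.333. The study pooled mice for each sample, and p-values measure the spread between these samples.

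Alternatives were median-ratio and quantile scaling, centring on the members' median (added after seeing the data), pseudocount 0.1, a minimum mean of 1 FPKM, other fold thresholds, adjustment as for 25000 genes, other limma settings, a replicate block, and leaving out each sample. The fit was tested on simulated data. The members and lists were chosen with earlier results of these data known. Named genes were the 4 largest rises and falls in each comparison, the 5 highest and 5 lowest levels, genes with a known role or disease link, and the extremes of each companion list. The other genes named were chosen after their values were seen. Replicate numbers did not pair samples.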

Additional observations from a re-analysis of the deposited data

How the results depend on the processing

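For Tnfr2-/- against WT, 6 genes were called higher with median-ratio scaling, 5 with quantile normalization, 7 with centring on the members' median (added after seeing the data), and 5 with no fold threshold, while 18, 27, and 12 were called lower with the first 3. For Tnfr1-/- against WT, the same settings gave 6, 5, 7, and 5 higher, a threshold of 2-fold gave 1, and 26, 34, and 12 were lower. Shares of all listed genes were not computed for quantile normalization, the other fold thresholds, or the replicate block. Counts under those settings therefore cannot be set against the table as a whole. The median log2 change was -0.31 with median-ratio scaling, -0.44 with quantile normalization, and -1.32 with pseudocount 0.1 in Tnfr2-/-, and -0.43, -0.59, and -1.60 in Tnfr1-/- MDSCs. The cause was not tested. In Tnfr2-/- against WT, genes above 0 went from 5 (7.14%) to 19 (27.1%) with median-ratio scaling and 31 (44.3%) with centring. Over all listed genes, the share above 0 went from 22.2% to 47.2% and 66.4%, so the whole table moved the same way. Centring uses the median of these same genes, so a near-even split above and below 0 is largely built in. Among the genes named by rule, the sign turned with median-ratio scaling for Mrpl54 (0.10), Mrps18c (0.55), Mrpl10 (0.67), Mrpl44 (0.0085), Mrps14 (0.075), and Mrpl36 (0.15), with quantile normalization for Mrps18c (0.40) and Mrpl10 (0.48), and with centring for Mrpl54 (0.21), Mrpl37 (0.076), Mrpl15 (0.019), Mrpl1 (0.21), Mrps18c (0.65), Mrpl10 (0.78), Mrps18b (0.0052), Mrpl44 (0.16), Mrps7 (0.062), Mrps14 (0.23), Mrpl24 (0.11), and Mrpl36 (0.26). With 1 sample left out at a time, the median ranged from -1.37 (without Tnfr2-/- replicate 2) to -1.04 (without Tnfr2-/- replicate 1) in Tnfr2-/- against WT and from 0.092 to 0.41 between the knockouts, where 0 to 10 genes were called higher, the 10 without Tnfr2-/- replicate 1. A group left with 1 sample is assumed to vary like the others. Over 59 single-gene results and 708 alternative values, 595 kept their direction and their side of the threshold, 78 lost and 15 gained the threshold, and 20 turned sign.

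Over all genes, same-numbered samples did not deviate together (correlations of replicate differences 0.0217, 0.0299, and 0.0463 over all genes, and 0.159, 0.201, and -0.0258 over the 70 genes). With a replicate block, 62 genes were lower and 3 higher than WT in Tnfr2-/- MDSCs, 64 and 3 in Tnfr1-/- MDSCs, and the knockouts differed in 0. The filter of the table, the WT scale, unknown depth, and 2 samples a group limit all results.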
